A study of Mus musculus with 6 samples.

Results

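The CXC chemokine genes Cxcl1, Cxcl2, Cxcl5, Cxcl9, Cxcl10, Cxcl11, Cxcl12, Cxcl14 and Cxcl16 were followed in HL-1, a cardiac muscle cell line of mouse atrial origin. All 9 symbols were found by name among 49492 genes of the deposited count table. 3 of them are interferon-type (Cxcl9, Cxcl10, Cxcl11), and the other 6 are NF-kB-type or homeostatic. RNA was sequenced from 3 libraries of cells transfected with ZNF593-AS, an antisense long noncoding RNA, and 3 libraries of cells transfected with vector. Both groups received palmitic acid, a saturated lipid, and the comparison therefore says nothing of the effect of palmitic acid itself. The titles of all 3 ZNF593-AS libraries give that name, while the treatment fields of replicates 2 and 3 give ZNF594-AS and ZNF595-AS, and titles were used for grouping. Whether replicates were separate cultures is not stated, so p-values measure the spread between these libraries, which may be technical. HL-1 is 1 cell line, and no protein was measured.

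CXC chemokines are small, mostly secreted proteins that bind G protein-coupled receptors on leukocytes and guide their migration. Cxcl9, Cxcl10 and Cxcl11 are ligands of Cxcr3 on T and natural killer cells and are induced by interferons through STAT and IRF transcription factors. Cxcl1, Cxcl2 and Cxcl5 act through Cxcr2 on neutrophils and are classic targets of NF-kB in stressed and injured tissue, the heart included. Cxcl12, Cxcl14 and Cxcl16 are made more steadily: Cxcl12 signals through Cxcr4 and is scavenged by Ackr3, and Cxcl16 is a membrane-bound ligand of Cxcr6.

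The bases upstream of 4 of these genes are shown because the genes fall into those that changed and those that did not pass the test. The windows come from RefSeq (GRCm38.p6), which held promoters of 6 of the 9 genes, and run from 250 to 31 bases before the annotated start, 220 bases on the strand of the gene. Capitals mark matches, on either strand, to an interferon-response type motif (GAAA, any pair of bases, GAAA), a STAT-binding type motif (TTCNNNGAA) or the kappaB consensus.
Cxcl10: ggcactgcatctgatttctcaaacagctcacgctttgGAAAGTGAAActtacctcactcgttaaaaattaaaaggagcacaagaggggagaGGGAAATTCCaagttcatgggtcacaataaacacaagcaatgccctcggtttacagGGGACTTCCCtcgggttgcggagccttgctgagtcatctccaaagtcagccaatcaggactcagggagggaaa
Cxcl9: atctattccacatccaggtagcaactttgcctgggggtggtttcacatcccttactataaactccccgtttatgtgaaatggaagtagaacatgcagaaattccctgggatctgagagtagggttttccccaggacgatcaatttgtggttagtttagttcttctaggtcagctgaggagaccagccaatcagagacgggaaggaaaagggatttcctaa
Cxcl1: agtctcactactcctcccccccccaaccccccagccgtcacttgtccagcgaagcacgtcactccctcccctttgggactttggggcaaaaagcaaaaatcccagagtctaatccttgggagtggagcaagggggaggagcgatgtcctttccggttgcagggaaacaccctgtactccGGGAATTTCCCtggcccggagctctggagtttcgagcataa
Cxcl2: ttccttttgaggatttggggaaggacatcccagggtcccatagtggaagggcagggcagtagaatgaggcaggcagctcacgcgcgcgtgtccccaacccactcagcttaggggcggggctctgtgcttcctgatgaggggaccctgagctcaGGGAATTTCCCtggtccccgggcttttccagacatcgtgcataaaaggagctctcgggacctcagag
These windows lie at chr5:92348920-92349139 and chr5:92328110-92328329 on the minus strand for Cxcl10 and Cxcl9, and at chr5:90890995-90891214 and chr5:90903649-90903868 on the plus strand for Cxcl1 and Cxcl2. The Cxcl10 window held the interferon-response motif as GAAAGTGAAA, at positions -213 to -204 from the start, and the kappaB consensus as GGGAAATTCC and GGGACTTCCC. The Cxcl1 and Cxcl2 windows each held the same run of 11 bases, GGGAATTTCCC, in which the kappaB consensus matches once on each strand with overlap. The Cxcl9 window held none of the 3 motifs. Among 32851 RefSeq windows of the same length, 2.63% held the interferon-response motif, 6.27% the STAT motif and 3.45% the kappaB consensus. The Cxcl12 window held none, and that of Cxcl14 held the interferon-response and STAT motifs. A match describes the letters of a window and is not shown to be a bound site.

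Gene counts summed to between 61042914 and 84547615 per ZNF593-AS library and between 51470457 and 73529088 per vector library. Levels are given as CPM, the count scaled to a common library size by TMM, edgeR's trimmed mean of M values. Of 16473 genes tested in edgeR's quasi-likelihood test at a Benjamini-Hochberg adjusted p under 0.05, 8.40% passed. Of cardiomyocyte markers, Tnnt2, a cardiac troponin, was at 97.4 ± 8.62 CPM in ZNF593-AS libraries and 89.2 ± 5.99 CPM in vector libraries (SD, n = 3 each), whereas 6 of 7 such markers were under 1 CPM, Nppa and Sln at 0 in all 6 libraries. Apart from Tnnt2, the cardiac markers were therefore at or near 0 in these libraries. The atrial muscle identity given for HL-1 is thus not borne out by these markers.

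The interferon-type ligands fell steeply with ZNF593-AS, and none of the other CXC ligands passed the test. Of the 9 genes, 8 were abundant enough to be tested; 3 were lower, 0 were higher and 5 did not pass edgeR's test, where 6.16% of all tested genes were lower and 2.23% higher (8.40% in either direction). Without multiple-test adjustment no further member had a p under 0.05, and DESeq2 and limma-voom also called 3 lower and 0 higher. The median log2 fold change was -0.58 over the 8 tested members, against 0.01 over all tested genes. Cxcl11 reached the minimum for testing in all 3 vector libraries but in 1 ZNF593-AS library, so it was tested through the group in which it was high; the other 7 reached it in all 6 libraries.

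**Figure D1:**
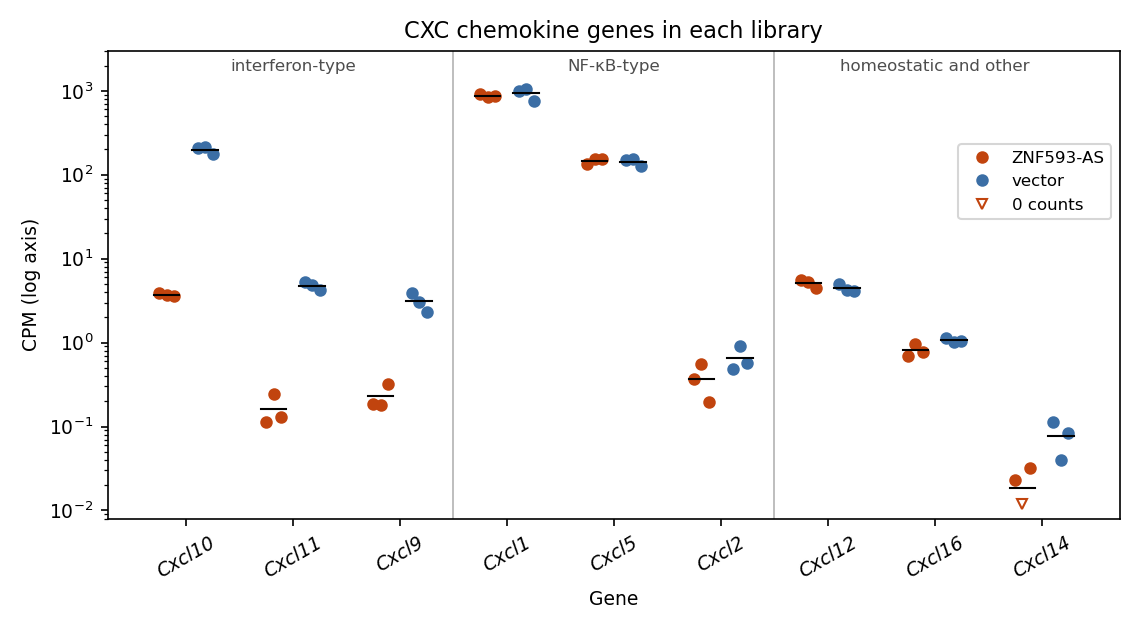
CPM of each CXC chemokine gene in each library on a log axis, with ZNF593-AS in rust red and vector in blue; short lines are group means and the open triangle is a library with 0 counts. The groups of Cxcl10, Cxcl11 and Cxcl9 lie far apart, while those of Cxcl1, Cxcl5, Cxcl2 and Cxcl12 overlap.

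Cxcl10, also called IP-10, recruits activated T cells. It spans chr5:92346638-92348889 (GRCm38, minus strand) and is protein-coding. It stood at 3.94, 3.66 and 3.62 CPM in ZNF593-AS replicates 1 to 3, against 207, 214 and 177 CPM in vector replicates 1 to 3. Every ZNF593-AS library was below every vector library, as for 13.4% of all tested genes. The log2 fold change was -5.73 ± 0.09 (SE), or 53.2-fold lower, with an edgeR adjusted p of 1.68e-16. It ranked 5 among the 16473 tested genes by the depth of the fall.

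Cxcl11, also called I-TAC, spans chr5:92359544-92365485 on the minus strand, and GENCODE M21 annotates it as a polymorphic pseudogene in the mouse reference, so its transcript need not give a protein. It was at 0.114, 0.246 and 0.129 CPM in ZNF593-AS libraries and at 5.21, 4.90 and 4.23 CPM in vector libraries. The groups did not overlap, and the log2 fold change was -4.85 ± 0.23 (SE), with an edgeR adjusted p of 1.03e-10. The ZNF593-AS values rest on 10, 19 and 8 counts, which limits the precision of the fold. Of the 50-base stretches in its transcripts, 0.237% also occur in other genes on the same strand and 40.4% on either strand, so without a known strand setting reads could be divided with other genes.

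Cxcl9, also called MIG, a T cell attractant known for its response to interferon-gamma, spans chr5:92321347-92328079 on the minus strand. It had 0.183, 0.181 and 0.323 CPM in ZNF593-AS libraries and 3.95, 3.04 and 2.32 CPM in vector libraries. These groups did not overlap either. The log2 fold change was -3.78 ± 0.27 (SE), and the edgeR adjusted p was 2.48e-08. The 95% intervals of the log2 fold changes were -5.93 to -5.54 for Cxcl10, -5.34 to -4.36 for Cxcl11 and -4.36 to -3.21 for Cxcl9.

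Of the neutrophil-attracting ligands, Cxcl1 was the most abundant CXC transcript of both groups. This gene (chr5:90891241-90893115, plus strand) stood at 913, 840 and 872 CPM in ZNF593-AS libraries and at 1004, 1061 and 746 CPM in vector libraries. All 3 ZNF593-AS values lay inside the range of the vector libraries. The log2 fold change was -0.10, with a 95% interval of -0.33 to 0.13 (edgeR adjusted p = 0.668). Cxcl5 (chr5:90759360-90761624, plus strand) stood at 134, 154 and 154 CPM with ZNF593-AS and at 151, 153 and 127 CPM with vector. The groups overlapped, and the log2 fold change was 0.04 with an interval of -0.13 to 0.20 (edgeR adjusted p = 0.859).

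Cxcl2 (chr5:90903871-90905938, plus strand), although it lies beside Cxcl1 and encodes a close relative, was scarce. It had 0.366, 0.557 and 0.194 CPM in ZNF593-AS libraries and 0.484, 0.908 and 0.567 CPM in vector libraries. The groups overlapped, and the log2 fold change was -0.77 with an interval of -1.56 to 0.02 (edgeR adjusted p = 0.259). With 1 library left out it ranged from -1.17 (without ZNF593-AS replicate 2) to -0.48 (without vector replicate 2), and it did not pass in any of these fits. With 12 to 46 counts per library the depth could not settle a change of this size. In the transcripts of Cxcl2, 5.84% of 50-base stretches also occur in Cxcl3, so reads could be divided between both genes.

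Among the steadily made ligands, Cxcl12 (chr6:117168535-117181367, plus strand), the stromal factor that retains blood progenitors, was at 5.56, 5.26 and 4.49 CPM in ZNF593-AS libraries and 4.95, 4.19 and 4.12 CPM in vector libraries. The groups overlapped (log2 fold change 0.21, interval -0.05 to 0.47, edgeR adjusted p = 0.355). Cxcl16 (chr11:70453983-70459984, minus strand) had 0.686, 0.972 and 0.775 CPM in ZNF593-AS libraries and 1.14, 1.01 and 1.04 CPM in vector libraries. Here each ZNF593-AS library was below each vector library, yet the gene did not pass (log2 fold change -0.39, interval -0.85 to 0.08, edgeR adjusted p = 0.355). Zmynd15, on the opposite strand, shares 552 bases with it, or 18.3% of the Cxcl16 exons, and reads there may belong to either gene. Zmynd15 itself was at 0.246 ± 0.109 CPM in ZNF593-AS libraries and 0.379 ± 0.0911 CPM in vector libraries (SD, n = 3 each) and did not pass. Cxcl14 (chr13:56288647-56296551, minus strand), an epithelial chemokine, had 2, 0 and 2 counts in ZNF593-AS libraries and 6, 2 and 6 counts in vector libraries. It was too low to test, and the 0 in ZNF593-AS replicate 2 allows up to 0.0778 CPM if counts include both mates, covering counting error only.

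**Figure D2:**
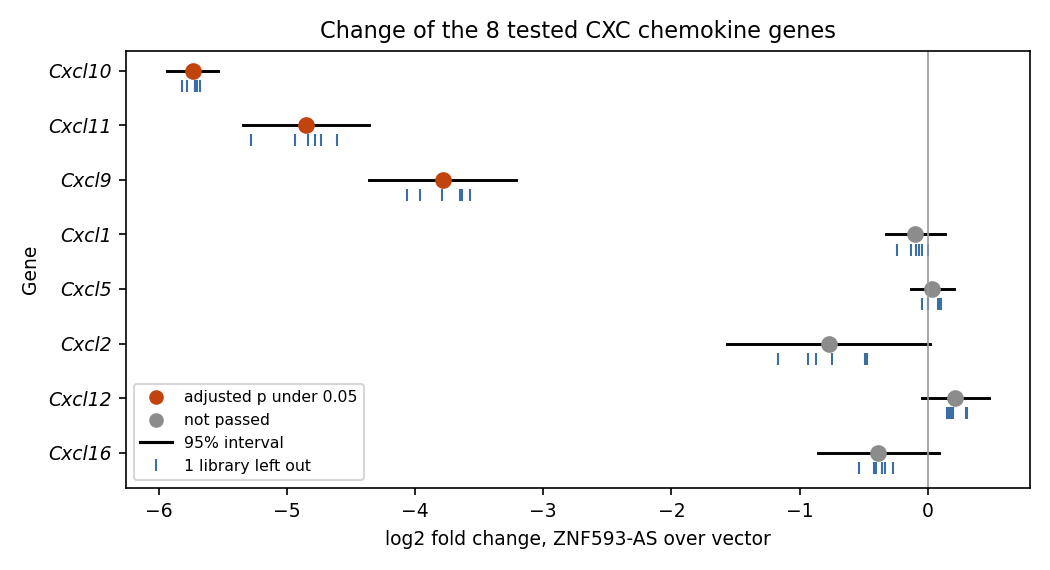
Log2 fold change of each tested CXC chemokine gene, ZNF593-AS over vector, with its 95% interval and the values when 1 library is left out. Only Cxcl10, Cxcl11 and Cxcl9 passed, at -5.73, -4.85 and -3.78, and no left-out library brought them near 0.

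Per kilobase of annotated exon, Cxcl1 reached 467 ± 19.6 CPM per kb in ZNF593-AS libraries and 500 ± 89.3 CPM per kb in vector libraries (SD, n = 3 each). Cxcl10 had 1.66 ± 0.0772 CPM per kb with ZNF593-AS and 88.6 ± 8.75 CPM per kb with vector, and Cxcl5 had 79.0 ± 6.14 and 77.1 ± 7.95 CPM per kb in the same order. Within each vector library Cxcl10 was somewhat above Cxcl5, although their ranges over these libraries overlapped. Both lay below Cxcl1 and far above the rest. In ZNF593-AS libraries Cxcl10 stood between Cxcl5 and Cxcl12. Cxcl12 had 0.624 ± 0.0676 CPM per kb with ZNF593-AS and 0.541 ± 0.0564 CPM per kb with vector. The rank of Cxcl10 by this level was 10150 of the 16473 tested genes with ZNF593-AS and 768 with vector, while that of Cxcl1 was 138 and 137. At the low end, Cxcl9 and Cxcl11 had 0.0760 ± 0.0270 and 0.0430 ± 0.0190 CPM per kb with ZNF593-AS, within their spread of each other, against 1.03 ± 0.270 and 1.26 ± 0.132 CPM per kb with vector. Cxcl16 had 0.269 ± 0.0484 CPM per kb with ZNF593-AS and 0.351 ± 0.0222 with vector, and Cxcl2 had 0.180 ± 0.0879 and 0.316 ± 0.109. Exon length is that given in the deposited table.

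The mixture of CXC transcripts differed accordingly. Cxcl10 made up 0.292% to 0.311% of the summed level per kb of the 9 ligands in ZNF593-AS libraries and 12.7% to 14.4% in vector libraries. Cxcl1 made up 84.0% to 86.7% with ZNF593-AS and 72.7% to 75.8% with vector, and Cxcl5 12.8% to 15.5% and 11.0% to 12.4%. Since shares sum to the whole, the larger shares of Cxcl1 and Cxcl5 do not show that either gene rose. The summed level itself was 533 to 562 CPM per kb in ZNF593-AS libraries and 548 to 746 CPM per kb in vector libraries, which overlap.

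Whether Cxcl10 fell by more than each other ligand was asked with the log2 ratio of their counts within a library, which library scaling cannot change. The log2 ratio of Cxcl10 to Cxcl1 was -7.86, -7.84 and -7.91 in ZNF593-AS libraries and -2.27, -2.31 and -2.08 in vector libraries, a difference of -5.65. To Cxcl5 the difference was -5.77, to Cxcl12 -5.94, to Cxcl16 -5.33 and to Cxcl2 -4.86. Within the interferon-type genes it was -1.99 to Cxcl9 and -0.84 to Cxcl11. In all 7 ratios every ZNF593-AS library was below every vector library. They share the Cxcl10 count, so the ratios to ligands that did not pass repeat its fall and are not separate results. The two-sided exact permutation p was 0.1 for each (0.1 after Benjamini-Hochberg adjustment over the 7), the smallest that 3 against 3 libraries allow, so none could pass 0.05. For Cxcl11 the difference ranged from -1.09 to -0.50 as 1 library was left out, the lowest without ZNF593-AS replicate 1 and the highest without ZNF593-AS replicate 2.

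**Figure D3:**
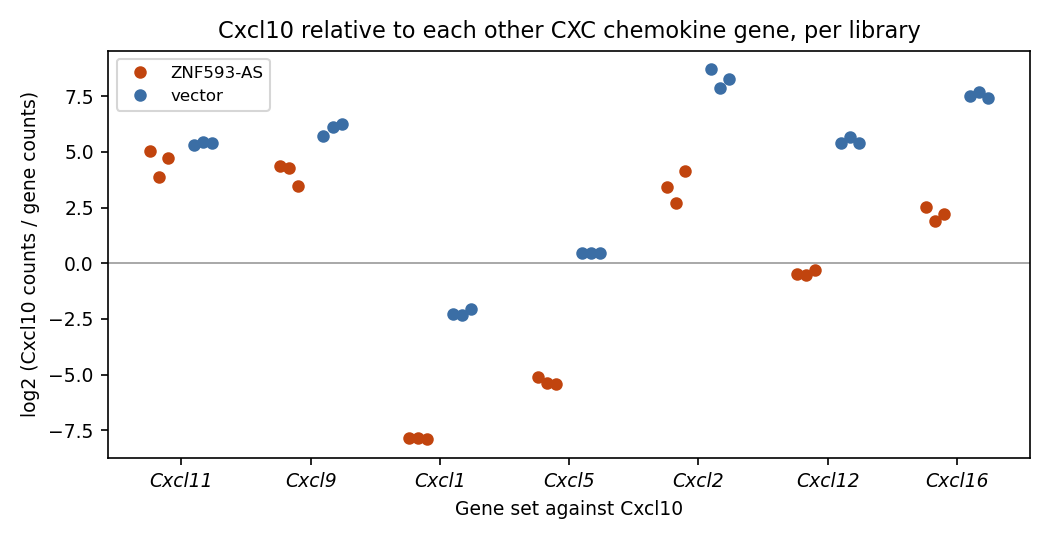
Log2 ratio of Cxcl10 counts to those of each other tested CXC chemokine gene in each library, ZNF593-AS in rust red and vector in blue. The difference of group means lies between -5.94 and -4.86 for ligands that are not interferon-type and is -1.99 for Cxcl9 and -0.84 for Cxcl11.

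Cxcl9, Cxcl10 and Cxcl11 lie in a row on the minus strand of chromosome 5 within 44.1 kb, and Cxcl5, Cxcl1 and Cxcl2 lie on the plus strand of the same chromosome within 146.6 kb, with 1.42 Mb between both clusters. Art3, an ADP-ribosyltransferase gene on the plus strand (chr5:92331827-92414628), spans Cxcl10 and Cxcl11 and shares 133 exon bases with Cxcl10 and 0 with Cxcl11. It was at 0.168 ± 0.0448 CPM in ZNF593-AS libraries and 9.54 ± 0.799 CPM in vector libraries (SD, n = 3 each), a log2 fold change of -5.81 ± 0.18 (SE, edgeR adjusted p = 7.39e-13). Its count equalled 4.94%, 3.19% and 5.36% of that of Cxcl10 in ZNF593-AS libraries and 4.92%, 4.55% and 4.89% in vector libraries. As the strand setting of the counting is not given, reads of Art3 and Cxcl10 in the shared bases cannot be told apart.

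Of the 15 other tested genes that start within 500 kb of Cxcl10, 5 fell, by far less, where 6.16% of all tested genes were lower. Scarb2, a lysosomal membrane protein, was at 54.8 ± 6.77 CPM in ZNF593-AS libraries and 91.9 ± 2.50 CPM in vector libraries (SD, n = 3 each), a log2 fold change of -0.75 ± 0.08 (SE). Sdad1 (-0.37) and the stress granule gene G3bp2 (-0.37) fell as well, as did the predicted genes Gm43599 (-0.41) and Gm26582 (-0.35). Gm43599 and Sdad1 lie on opposite strands, with starts at -58.8 and -38.4 kb from that of Cxcl10. The same holds for Gm26582 (-305.8 kb) and G3bp2 (-265.2 kb). Whether these pairs share exons was not looked up, so the 5 calls may not be separate. Without ZNF593-AS replicates 2 and 3, whose treatment fields differ, the calls of Sdad1, G3bp2 and Gm26582 ended (edgeR adjusted p = 0.109, 0.103 and 0.123). Around Cxcl1 none of 9 other genes fell and 1 rose, where 6.16% of all tested genes were lower and 2.23% higher. The gene that rose was Areg, a ligand of the EGF receptor (log2 fold change 0.25 ± 0.07, SE, edgeR adjusted p = 0.0483). That call ended in limma-voom, with DESeq2 size factors and without any one of ZNF593-AS replicates 1 to 3 or vector replicates 2 and 3. These neighbours were chosen after their values were seen.

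**Figure D4:**
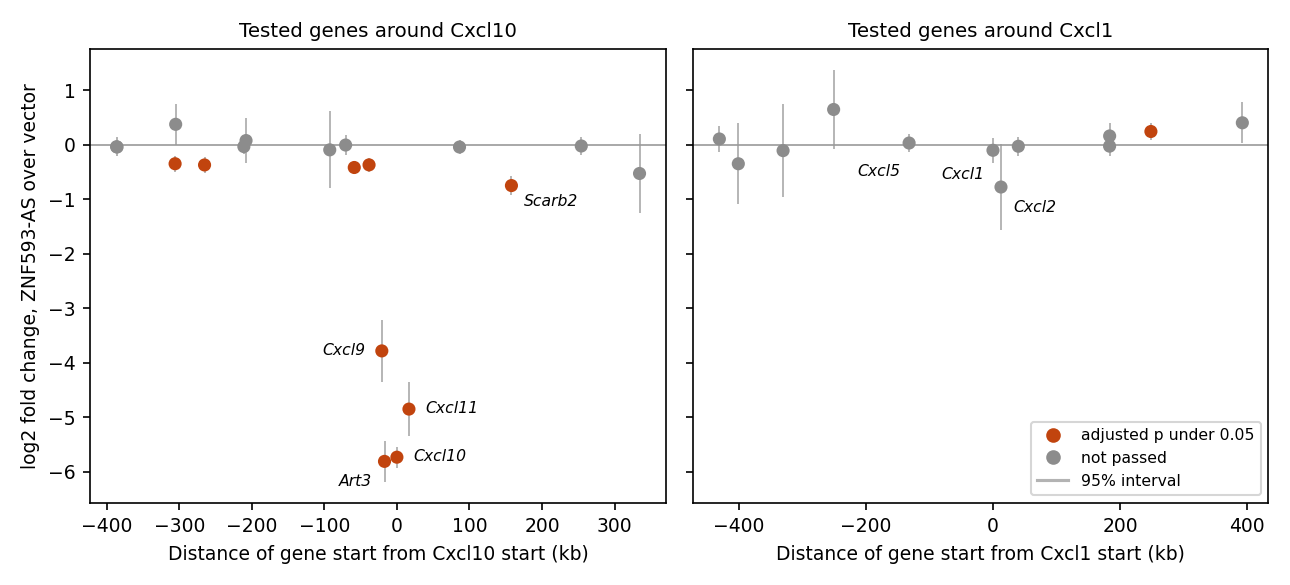
Log2 fold change, ZNF593-AS over vector, of tested genes by the distance of their start from that of Cxcl10 (left) and of Cxcl1 (right), with 95% intervals. Cxcl9, Cxcl10, Cxcl11 and the overlapping Art3 lie at -3.78 or below, while the other genes around Cxcl10 lie between -0.75 and 0.38.

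Transcripts of the signalling CXC receptors, Cxcr1 to Cxcr6, were at or near 0 in the cells. Cxcr1 and Cxcr3, and the atypical receptors Ackr1 and Ackr2, had no count in any of the 6 libraries. If both mates were counted, this allows up to 0.0149 CPM each over all libraries, counting error only. Cxcr2, Cxcr4, Cxcr5 and Cxcr6 had at most 6 counts in a library. The atypical receptor Ackr3, which scavenges Cxcl12 and Cxcl11, was at 1.70 ± 0.207 CPM with ZNF593-AS and 1.76 ± 0.376 CPM with vector (SD, n = 3 each), and Ackr4, a scavenger of CC chemokines, at 0.725 ± 0.0702 and 0.790 ± 0.142 CPM. Neither passed edgeR's test, at log2 fold changes of -0.06 and -0.12. The other 6 CXC ligand genes of the mouse looked up (Cxcl3, Cxcl13, Cxcl15, Cxcl17, Pf4 and Ppbp) had at most 10 counts in a library and were not tested.

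Genes that carry the interferon signal to Cxcl9, Cxcl10 and Cxcl11 were lower in part. Of 13 tested, 7 fell and 0 rose, while 6 did not pass, where 6.16% of all tested genes were lower and 2.23% higher. Their median log2 fold change was -0.20, against 0.01 over all tested genes. Irf1, an interferon-induced transcription factor, was at 52.4 ± 4.99 CPM in ZNF593-AS libraries and 226 ± 3.41 CPM in vector libraries (SD, n = 3 each), a log2 fold change of -2.11 ± 0.07 (SE). Stat2 (log2 fold change -2.69 ± 0.13, SE) and Irf9 (-1.50 ± 0.10, SE), transcription factors that carry the type I interferon signal, fell too. Irf1 overlaps a gene on the opposite strand and Irf9 a gene on its own strand, which makes those values less certain. The receptor subunit genes Ifnar1, Ifnar2, Ifngr1 and Ifngr2 did not pass.

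Of 18 tested NF-kB genes and NF-kB targets other than chemokines of the CXC family, 7 fell and 0 rose, while 11 did not pass, against 6.16% lower and 2.23% higher among all tested genes. The median log2 fold change was -0.21, against 0.01 over all tested genes. Il6, an inflammatory cytokine, was at 54.5 ± 4.70 CPM with ZNF593-AS and 155 ± 11.0 CPM with vector (SD, n = 3 each), a log2 fold change of -1.51 ± 0.07 (SE), and Ccl2, a monocyte chemokine, had -0.91 ± 0.09 (SE). Nfkb1, which encodes the p50 precursor, had -0.31 ± 0.06 (SE), a call that ended without ZNF593-AS replicates 2 and 3 (edgeR adjusted p = 0.142). Rela, which encodes the p65 subunit and was named after its value was seen, did not pass, at -0.01. The values of Il6 and Ccl2 stand beside those of Cxcl1 and Cxcl5, NF-kB targets that did not pass.

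Regulators of CXC messenger RNA decay, such as the tristetraprolin family that destabilises Cxcl1 and Cxcl2 transcripts, were measured as well. Of 9 tested, 3 fell, 0 rose and 6 did not pass, against the same 6.16% lower and 2.23% higher among all tested genes. The median log2 fold change was -0.10. Those that fell were Zfp36l2 (log2 fold change -0.59 ± 0.06, SE), Zfp36, which encodes tristetraprolin itself (-0.43 ± 0.08, SE), and Traf5 (-0.72 ± 0.14, SE), which takes part in stabilising Cxcl1 RNA after IL-17. The call of Zfp36 ended without ZNF593-AS replicates 2 and 3 (edgeR adjusted p = 0.112). Among 5 tested proteases that cut or shed CXC ligands, Mmp2 fell (-0.24 ± 0.07, SE, edgeR adjusted p = 0.0297) and 4 did not pass. Here too, 6.16% of all tested genes were lower and 2.23% higher. The median log2 fold change of the 5 proteases was -0.07. The Mmp2 call ended with library totals and without any one library other than ZNF593-AS replicate 1 or vector replicate 3. Without ZNF593-AS replicates 2 and 3, leaving only replicate 1 in that group, the log2 fold change of Mmp2 was -0.16. Adam10, the main sheddase of Cxcl16, likewise named after its value was seen, had a log2 fold change of -0.03.

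**Figure D5:**
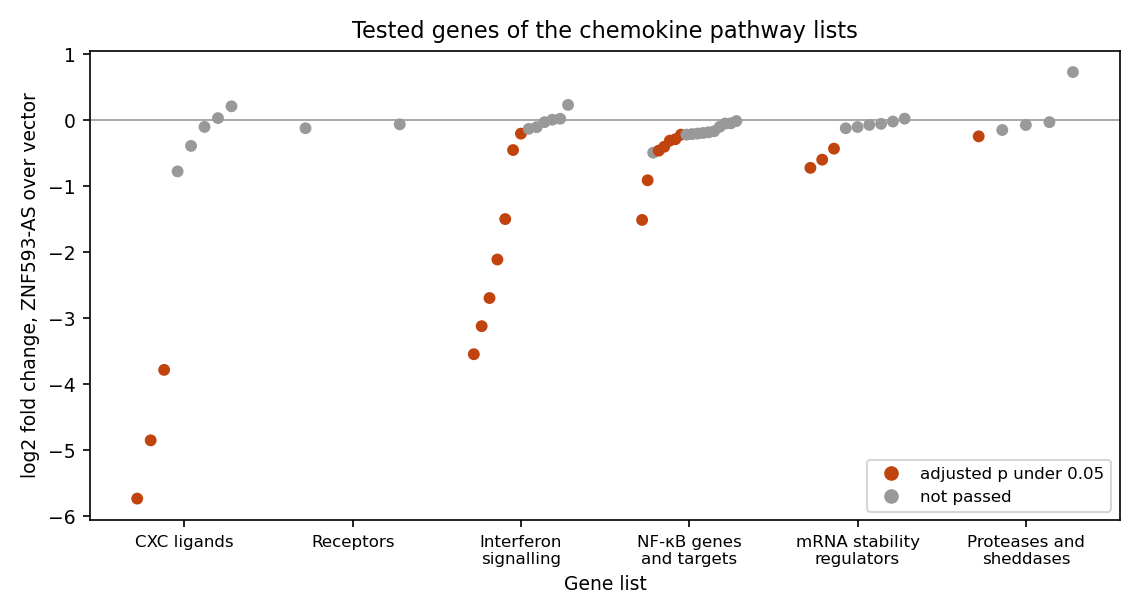
Log2 fold change, ZNF593-AS over vector, of each tested gene in the lists of CXC ligands, receptors, interferon signalling, NF-kB genes and targets, RNA stability regulators and proteases; rust red points passed edgeR's test. The 3 interferon-type ligands lie at -3.78 or below, lower than every tested gene of the other lists.

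By the distance of log2 profiles over the 6 libraries, each centred on its mean, the genes closest to Cxcl10 were Mx1 (distance 0.36), Rsad2 (0.52) and Ifit3b (0.69), antiviral effector genes with log2 fold changes of -5.92, -5.63 and -5.27. Closest to Cxcl11 were Gbp11 (0.10), Psmb8 (0.32) and Slfn1 (0.34), with -4.19, -2.94 and -4.92. Closest to Cxcl9 were Tapbp (0.25), Tor3a (0.37) and H2-T23 (0.39), with -2.28, -2.37 and -2.19. The constant of 0.5 CPM added before taking logs compresses the profiles of the scarce Cxcl9 and Cxcl11. Genes picked for such profiles fall with ZNF593-AS by the choice itself.

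Other cell types that make CXC ligands were looked for by their markers. Macrophage markers summed to 13.0 to 13.8 CPM in ZNF593-AS libraries and 10.4 to 12.9 CPM in vector libraries. Of 5 tested, 1 rose and 4 did not pass, where 2.23% of all tested genes were higher and 6.16% lower. The gene that rose was Cd68 (log2 fold change 0.46 ± 0.13, SE, edgeR adjusted p = 0.0316). That call ended without any one of ZNF593-AS replicates 2 and 3 or vector replicates 1 and 2. Without both ZNF593-AS replicates 2 and 3, leaving only replicate 1 in that group, the log2 fold change of Cd68 was 0.40. Adgre1, another macrophage marker, had 0 counts in all ZNF593-AS libraries and 2, 0 and 2 counts in vector libraries. Cd14, in contrast, was at 3.82 ± 0.421 CPM with ZNF593-AS and 3.55 ± 0.656 CPM with vector (SD, n = 3 each). Csf1r was at 2.39 ± 0.248 and 2.45 ± 0.178 CPM in the same order. Neither passed, and nor did the scarcer Ptprc (log2 fold change 0.22) and Lyz2 (-0.53). Itgam was too low to test. The 4 T cell markers summed to 0.130 to 0.194 CPM with ZNF593-AS and 0.138 to 0.298 CPM with vector, and the 5 endothelial markers to 0.485 to 0.687 and 0.443 to 0.670 CPM. Fibroblast markers summed to 52.8 to 61.8 CPM with ZNF593-AS and 69.6 to 73.0 CPM with vector. Most of that sum was Col1a1, at 46.8 ± 4.19 and 64.1 ± 1.61 CPM in the same order (SD, n = 3 each). Of 4 tested, 1 fell, 1 rose and 2 did not pass, where 6.16% of all tested genes were lower and 2.23% higher. Their median log2 fold change was 0.28, against 0.01 over all tested genes. Col1a1 fell (-0.45 ± 0.07, SE), while Dcn (0.26) and Thy1 (0.30) did not pass. Pdgfra rose (0.39 ± 0.11, SE, edgeR adjusted p = 0.0370), a call that ended in limma-voom and without any one library other than ZNF593-AS replicate 2. In the same fit with only ZNF593-AS replicate 1, the log2 fold change of Pdgfra was 0.47. The part of these cell types in the chemokine values was not tested. In bulk RNA, fewer cells of a type and less RNA per cell cannot be told apart.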

How the data were processed

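The deposited values are raw read counts per gene with exon coordinates and length, per the file headers. The submitters' processing notes list TopHat2, Bowtie2, cutadapt 1.2.1, CASAVA and the build GRCm38. The counting tool and strand setting are not given in the sources. Per library, 2160 to 2359 genes had a count of 2 but 365 to 492 a count of 1, so both mates of a pair seem to have been counted. The members and lists were chosen with earlier results of these data known.

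Genes were kept by filterByExpr (minimum count 10, total 15) and ZNF593-AS was tested against vector in edgeR 4.0.16 (TMM, robust quasi-likelihood F test, two-sided, Benjamini-Hochberg over 16473 genes, R 4.3.3), tested on simulated data. The SE is the log2 fold change over the square root of F. CPM use TMM-scaled library sizes. Log2 ratios added 0.5 counts and were compared by exact permutation of libraries. Named are all 9 members, overlapping tested genes, up to 3 called genes per list and direction by smallest p (or, with no call, the gene of smallest p), the 3 genes nearest in profile, and others where stated or where a list's exceptions called for it; some items are not reported here. Alternatives were DESeq2 1.42.0, limma-voom (limma 3.58.1), DESeq2 size factors, library totals, no filter, a mean of at least 1 CPM, halved counts, a replicate block, and left-out libraries. Libraries of a group differed beyond sampling noise (chi-square on halved counts, at least 9.95 per gene). Coordinates are those of the deposited table. The single-library limits cover counting error only.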

Additional observations from a re-analysis of the deposited data

How the results depend on the processing

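Under all 15 alternatives 3 CXC ligands were called lower and 0 higher. The log2 fold change ranged from -5.81 to -5.64 for Cxcl10, from -5.36 to -4.61 for Cxcl11 and from -4.07 to -3.57 for Cxcl9, and with 1 library left out from -5.81 to -5.68, from -5.28 to -4.61 and from -4.07 to -3.57. With 1 library left out Cxcl1 ranged from -0.239 (without vector replicate 3) to 0.00090 (without vector replicate 2). Cxcl5 turned to -0.0489 without vector replicate 3 and to -0.10 without ZNF593-AS replicates 2 and 3, none of them passing. Ackr3 turned to 0.0333 under library totals, to 0.0946 without ZNF593-AS replicates 2 and 3, and with 1 library left out ranged from -0.211 (without vector replicate 2) to 0.0627 (without vector replicate 1), with 0.0336 without ZNF593-AS replicate 2. Ackr4 turned to 0.0195 without ZNF593-AS replicates 2 and 3. Of 43 named genes, 29 kept direction and call under every alternative. Over all genes, 1015 were lower and 368 higher. The higher count was 1284 under library totals (with 811 lower), which shifted the median log2 fold change of all genes to 0.10. With no filter the higher count was 561. Without ZNF593-AS replicates 2 and 3 the counts were 630 lower and 45 higher. That fit had fewer libraries and also lacked those whose treatment fields differ. Which of these lowered the counts was not tested. Leaving out 1 library gave 827 to 962 lower and 138 to 394 higher, the higher count falling below 368 by over 1.5 times without ZNF593-AS replicate 2 (138) or 3 (170) or vector replicate 1 (209) or 2 (234). Same-numbered libraries did not deviate together (correlations -0.07, -0.02 and 0.05), and with the replicate block 997 genes were lower and 334 higher, with the same 3 and 0 CXC ligand calls. The differences in log2 ratio kept their sign under a prior of 2 counts, halved counts and each left-out library. Depth limits Cxcl2, Cxcl14 and the ZNF593-AS values of Cxcl9 and Cxcl11.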

Other observations

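The 3 genes with profiles closest to Cxcl1 over the 6 libraries were Wrap73 (distance 0.08), Krt8 (0.08) and Parvg (0.12). Among those closest to Cxcl5 were Haus3 (0.04) and Rras (0.09), and those closest to Cxcl12 were Tmub1 (0.08), Abhd1 (0.09) and Ntan1 (0.10). None of these 8 genes passed edgeR's test, with adjusted p-values from 0.329 to 0.948 in the fit across all genes. They were picked for profiles like those of members that did not pass, so this was nearly set by the choice.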
